A study of Rattus norvegicus with 16 samples.

Results

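The livers compared here came from rats fed either ordinary chow or a choline-deficient diet defined by its L-amino acids (CDAA) for 3 weeks, without molecular hydrogen. All 4 arrays of the control normal-diet group and all 4 of the control CDAA group were taken, which is 8 of the 16 arrays of the series, and every probe set other than the manufacturer's controls was used. The animals were male F344 rats, an inbred strain, 4 weeks of age by the labels. Whether that age was counted at the start or the end of the 3 weeks of diet was not settled. The normal-diet rats ate the grain-based chow CE-2 and the CDAA rats a purified diet in which free amino acids replace protein. Both groups breathed plain air and drank the control water, which was hydrogen-rich water that had been stirred in the open until the gas was gone. Water of that kind carried 0.7 mM hydrogen in the other 8 rats, which also lived in air with 2% hydrogen and ate 1 or the other of the same diets. The chow and the purified diet differ in far more than choline, so an effect of choline and an effect of the rest of the diet cannot be told apart. RNA of whole liver was hybridised to Affymetrix RG-230 PM arrays, 1 array per sample. The values are log2 signals, so that 1 unit is a 2-fold difference, and signals are listed below in the order of replicates 1 to 4.

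Choline is needed to make phosphatidylcholine, the main phospholipid of the very low density lipoproteins in which the liver exports triglyceride. When choline is short, the liver can make phosphatidylcholine by methylating phosphatidylethanolamine, which draws on S-adenosylmethionine from the methionine cycle, and triglyceride accumulates in hepatocytes. Cells that lack an amino acid or suffer other stresses phosphorylate the initiation factor eIF2, after which the transcription factor ATF4 is translated and switches on genes for amino acid synthesis, transport and tRNA charging. Fatty livers on such diets are known to draw in macrophages, and later to scar.

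The 8 arrays separated by diet, but not evenly. On the leading axis of variation among them, which held 70.8% of the variance, normal replicates 1 to 3 lay at -34.9, -37.1 and -33.1 and normal replicate 4 at -13.4, while the CDAA arrays lay at 33.6, 23.2, 35.8 and 25.9. Normal replicate 4 therefore lay between the diets, although on the side of its own group, and results are given with and without it. For the 246 genes that were over 2-fold higher on CDAA, this array lay a median of 41.2% of the way from the mean of the other 3 normal arrays to the CDAA mean, and it was the highest normal array for 235 of them. For the 116 genes over 2-fold lower it lay 17.1% of the way and was the lowest normal array for 86. The rising genes were thus more displaced on this array than the falling ones. Among the CDAA arrays, replicate 2 was the nearest to the normal diet for 128 of the 246 rising genes, and replicate 4 for 62 of the 116 falling genes. What set these arrays apart was not tested.

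**Figure D1:**
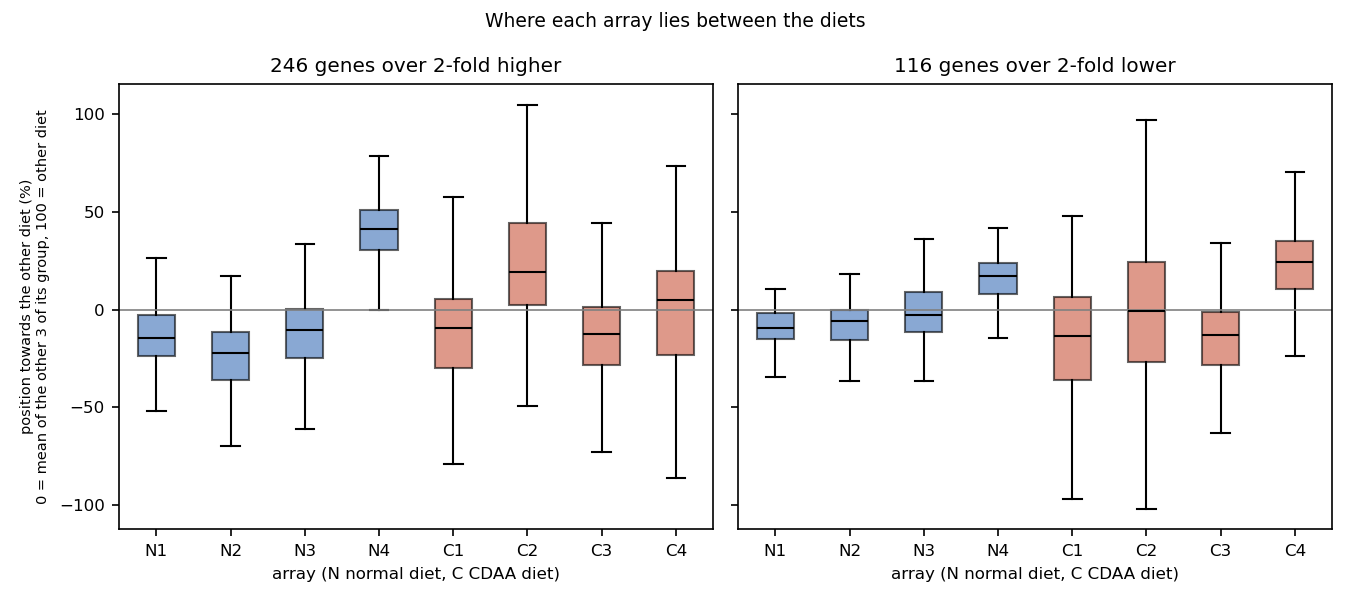
For each array, how far each gene lay from the mean of the other 3 arrays of its group (0%) towards the mean of the other diet, in percent of that distance, shown as boxes (median, quartiles and whiskers at 1.5 times the box) over the 246 genes over 2-fold higher and the 116 over 2-fold lower on CDAA. Normal array 4 sits at a median of 41.2% in the left panel and 17.1% in the right, and the other 3 normal arrays have medians below 0%. Those lower medians follow in part from the construction, because the mean they are set against includes normal array 4.

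The tissue matched its label. Albumin (Alb), the main plasma protein of hepatocytes, read 13.70 to 13.72 on the normal diet and 13.72 on every CDAA array, near the top of the array's range. Of 9 hepatocyte-defining genes measured, 1 rose and 2 fell, and the sum of their linear signals was 67896 to 69022 on the normal diet and 64627 to 67302 on CDAA. Fat, muscle, pancreas and blood could have been caught with the tissue, so their markers were listed too. The adipocyte hormones Adipoq and Lep stayed near the detection line of 3.68, at 3.75 to 3.89 and 3.60 to 3.71 on the normal diet and 3.77 to 3.89 and 3.63 to 3.79 on CDAA. Of 5 red blood cell genes measured 2 fell and 0 rose, the anion exchanger gene Slc4a1 by 0.74 and the haem synthesis gene Alas2 by 0.59 log2, and the summed linear signal of the list was 90 to 105 on the normal diet and 75 to 77 on CDAA. Of 8 pancreas and gut markers 1 rose, Fabp2 of the gut lining, and 0 fell, and of 6 muscle markers 0 rose and 1 fell, Stac3. Both are described below.

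Diet moved a large share of the measured genes, most of them slightly. A linear model (limma) fitted to all 16 arrays gave an adjusted p under 0.05 for 8027 of 22634 probe sets, which is 35.5%. At 1 probe set per gene, 4640 of 11435 genes were called (40.6%): 3120 were higher on CDAA (27.3%) and 1520 lower (13.3%). These 2 shares are the background for every list below, together with a median log2 difference of 0.04 over all genes. The median size among called genes was 0.41 log2, and 72.3% of them differed by less than 1.5-fold. Over 2-fold, 246 genes were higher (2.15%) and 116 lower (1.01%). All 4 CDAA arrays lay above all 4 normal arrays for 2820 genes (24.7%) and below them for 1521 (13.3%).

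Leaving out normal replicate 4 gave nearly the same counts, 3057 genes higher (26.7%) and 1497 lower (13.1%), and 4331 genes were called in the same direction with and without it. The excess of rises over falls depended on how the arrays were scaled. Rises were 59.3% of the called probe sets on the deposited scale, 50.7% after another quantile normalisation, 62.8% after centring each array on its median, and 41.1% after centring on the median of the tested probe sets, an alternative chosen after seeing the data. The same scalings moved the median difference over all genes between -0.03 and 0.06.

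The balance of rises and falls changed with signal strength. Among the 10% of genes with the strongest mean signal, at 9.15 log2 and above, 29.5% were higher and 27.9% lower, and 10 were over 2-fold higher against 34 over 2-fold lower. Among the 10% of genes with middling signals, from 5.43 to 6.02 log2, 33.3% were higher and 9.44% lower, with 40 and 5 over 2-fold. The strongly lowered abundant genes included Obp3, Oat, Cyp2c11, Nrep, Gstp3, Papss2, Hao2, Hsd3b5, Gnmt and Cyp2a2, most of them enzymes or secreted proteins of hepatocytes. The raised ones of the same strength included the retinal dehydrogenase Aldh1a1 (4.63-fold), the stress-induced insulin-like growth factor binding protein Igfbp1 (3.34-fold), the endoplasmic reticulum shaping protein Reep5 (2.73-fold) and the tetraspanin Cd63 (2.56-fold).

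**Figure D2:**
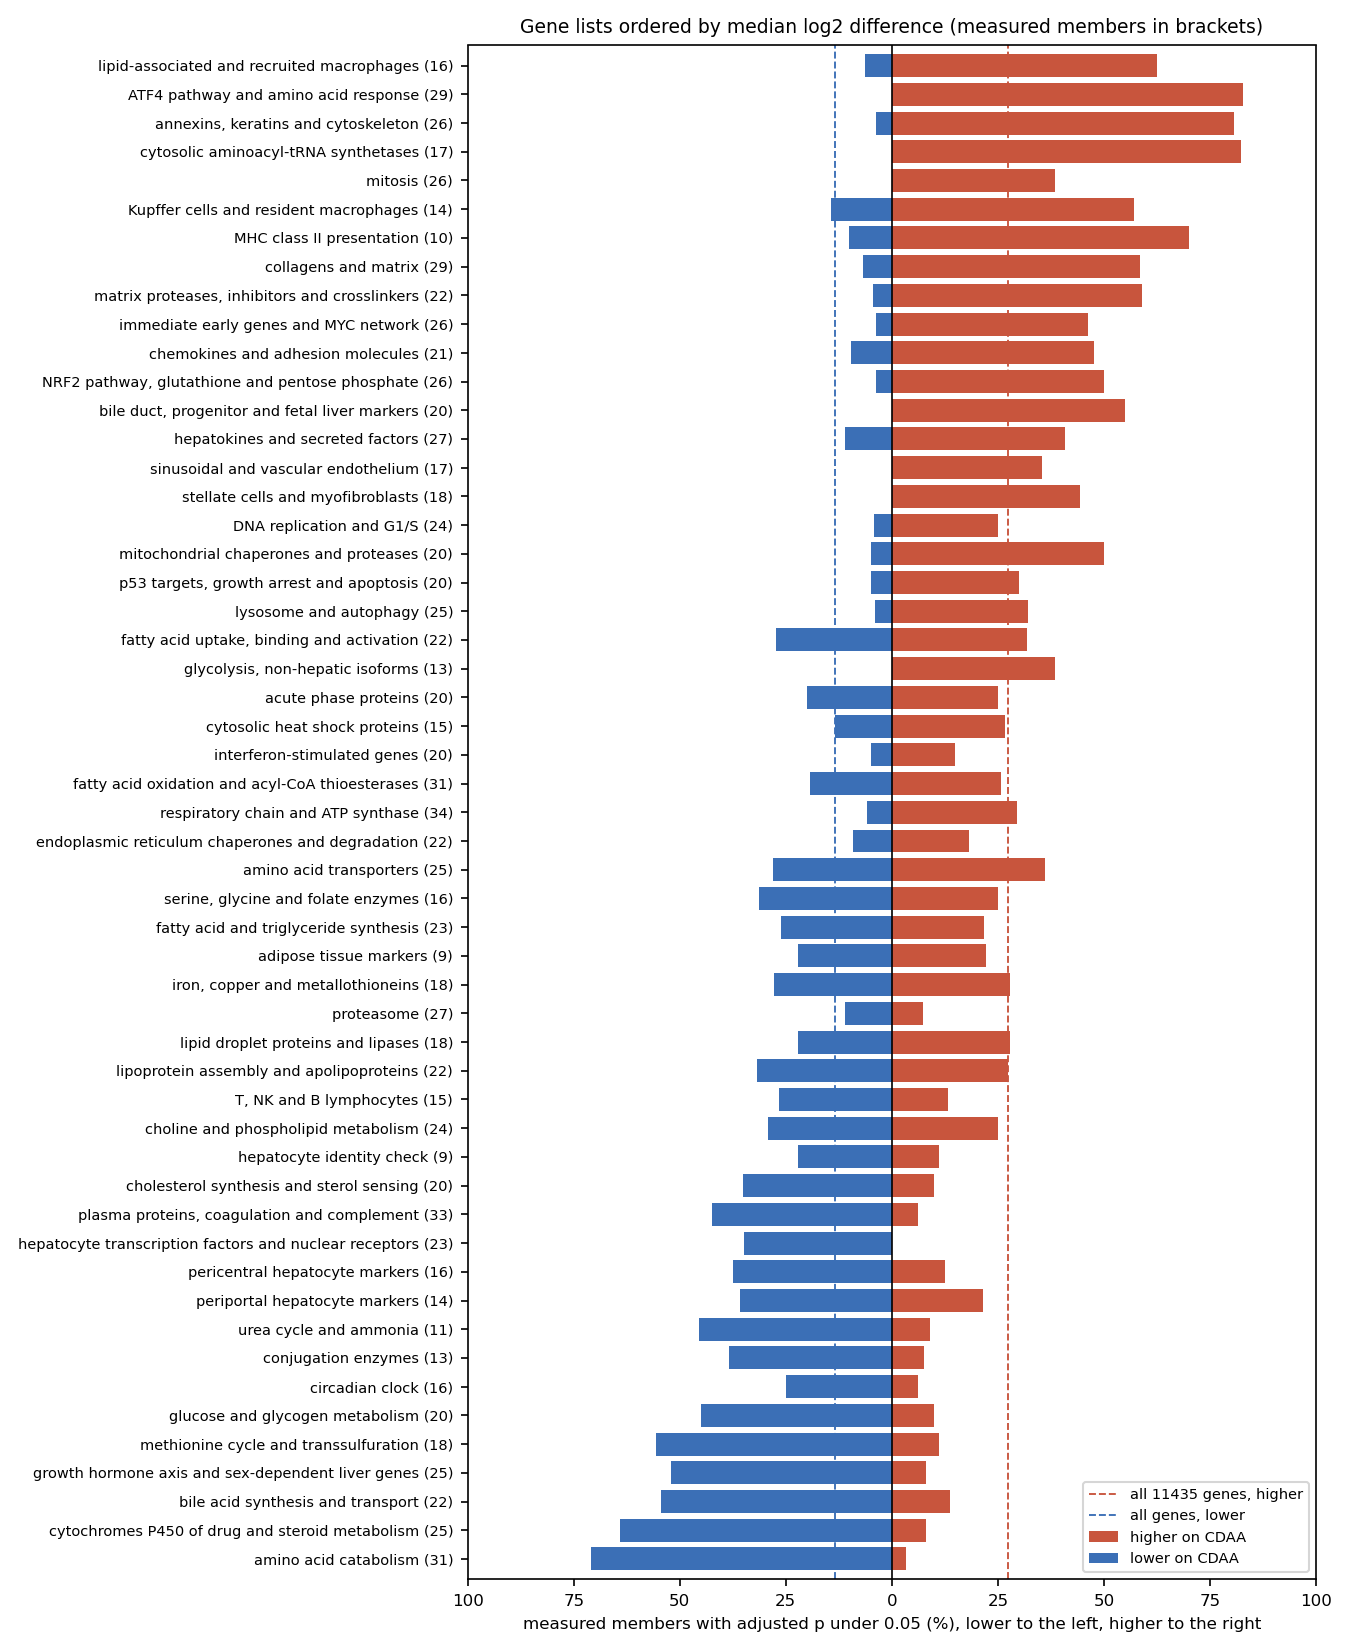
Share of the measured members of each gene list (those with at least 9 measured) that were higher (right) or lower (left) on CDAA at an adjusted p under 0.05, ordered by the list's median log2 difference, with dashed lines at the shares over all 11435 genes (27.3% and 13.3%). The ATF4 list, the synthetases and the annexin and cytoskeleton list lie farthest right, and amino acid catabolism and the drug-metabolising cytochromes farthest left.

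Genes of the ATF4 pathway had the largest share of members higher among the lists compared, and none lower. Of 29 measured members 24 rose and 0 fell (25 higher and 0 lower without normal replicate 4), against 27.3% and 13.3% of all genes, and the median log2 difference was 1.01. Asns, which makes asparagine from aspartate and glutamine, read 4.20, 4.33, 4.58 and 6.16 on the normal diet and 7.48, 7.46, 7.67 and 8.15 on CDAA. All 4 CDAA arrays were high, and normal replicate 4 stood apart from its group without reaching them (groups apart, log2 difference 2.87 ± 0.314, standard error of the fit, limma adjusted p = 1.01e-05, and 3.32 without normal replicate 4). Fgf21, a hormone that the liver secretes in fasting and under amino acid shortage, read 4.83, 4.59, 5.17 and 9.23 on the normal diet and 9.10, 8.87, 10.99 and 11.02 on CDAA. Here normal replicate 4 was above CDAA replicates 1 and 2 (groups overlapping, 4.04 ± 0.881, adjusted p = 0.0021, and 5.13 without normal replicate 4). In fold terms that is 16.4-fold with all arrays and 35.1-fold without normal replicate 4.

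The transcription factor genes of the pathway followed. Atf4 itself read 9.07, 9.00, 9.53 and 9.82 on the normal diet and 10.43, 9.78, 10.55 and 10.70 on CDAA, with 1 CDAA array below the highest normal array (groups overlapping, 1.01 ± 0.209, adjusted p = 0.00143, and 1.17 without normal replicate 4). Ddit3, which encodes the pro-apoptotic factor CHOP, Atf3 and the chromatin-associated stress protein gene Nupr1 differed by 1.58, 3.21 and 3.25 log2, and by 1.95, 4.11 and 3.99 without normal replicate 4, and Atf3 by 3.88 without CDAA replicate 2. Nupr1 read 6.26, 6.20, 6.30 and 9.22 on the normal diet and 10.07, 9.75, 10.41 and 10.74 on CDAA, without overlap. Trib3, a pseudokinase that restrains ATF4, read 6.00, 5.83, 6.05 and 8.65 on the normal diet and 8.86, 8.03, 9.27 and 10.12 on CDAA (difference 2.44, and 3.11 without normal replicate 4). Chac1, which degrades glutathione, read 6.15, 6.19, 6.25 and 7.30 on the normal diet and 7.57, 6.88, 9.30 and 9.23 on CDAA (difference 1.77). In both, normal replicate 4 lay above CDAA replicate 2, which was the lowest CDAA array for Trib3, Chac1, Ddit3 and Atf4 alike. Among the transporters that ATF4 controls, the cationic amino acid carrier Slc7a1 rose by 1.60, the shared heavy chain Slc3a2 by 1.27 and the glutamine carrier Slc38a2 by 1.03 log2. The 5 members without a call were Cebpb (0.36), Eif2ak4 (0.15), Slc1a4 (-0.02), Stc2 (-0.08) and Sesn2 (-0.16). Ddit3 lost its call when normal replicate 2 or CDAA replicate 4 was left out (adjusted p = 0.0529 to 0.056). Cebpb gained a call when normal replicate 3 or 4 or CDAA replicate 2 was left out (adjusted p = 0.0271 to 0.0427). Cebpb gained a call with array weights (adjusted p = 0.0226). Eif2ak4 gained a call with arrays centred on their median, with the mean of the gene's probe sets or without hydrogen-treated CDAA replicate 3 (adjusted p = 0.0352 to 0.0493).

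**Figure D3:**
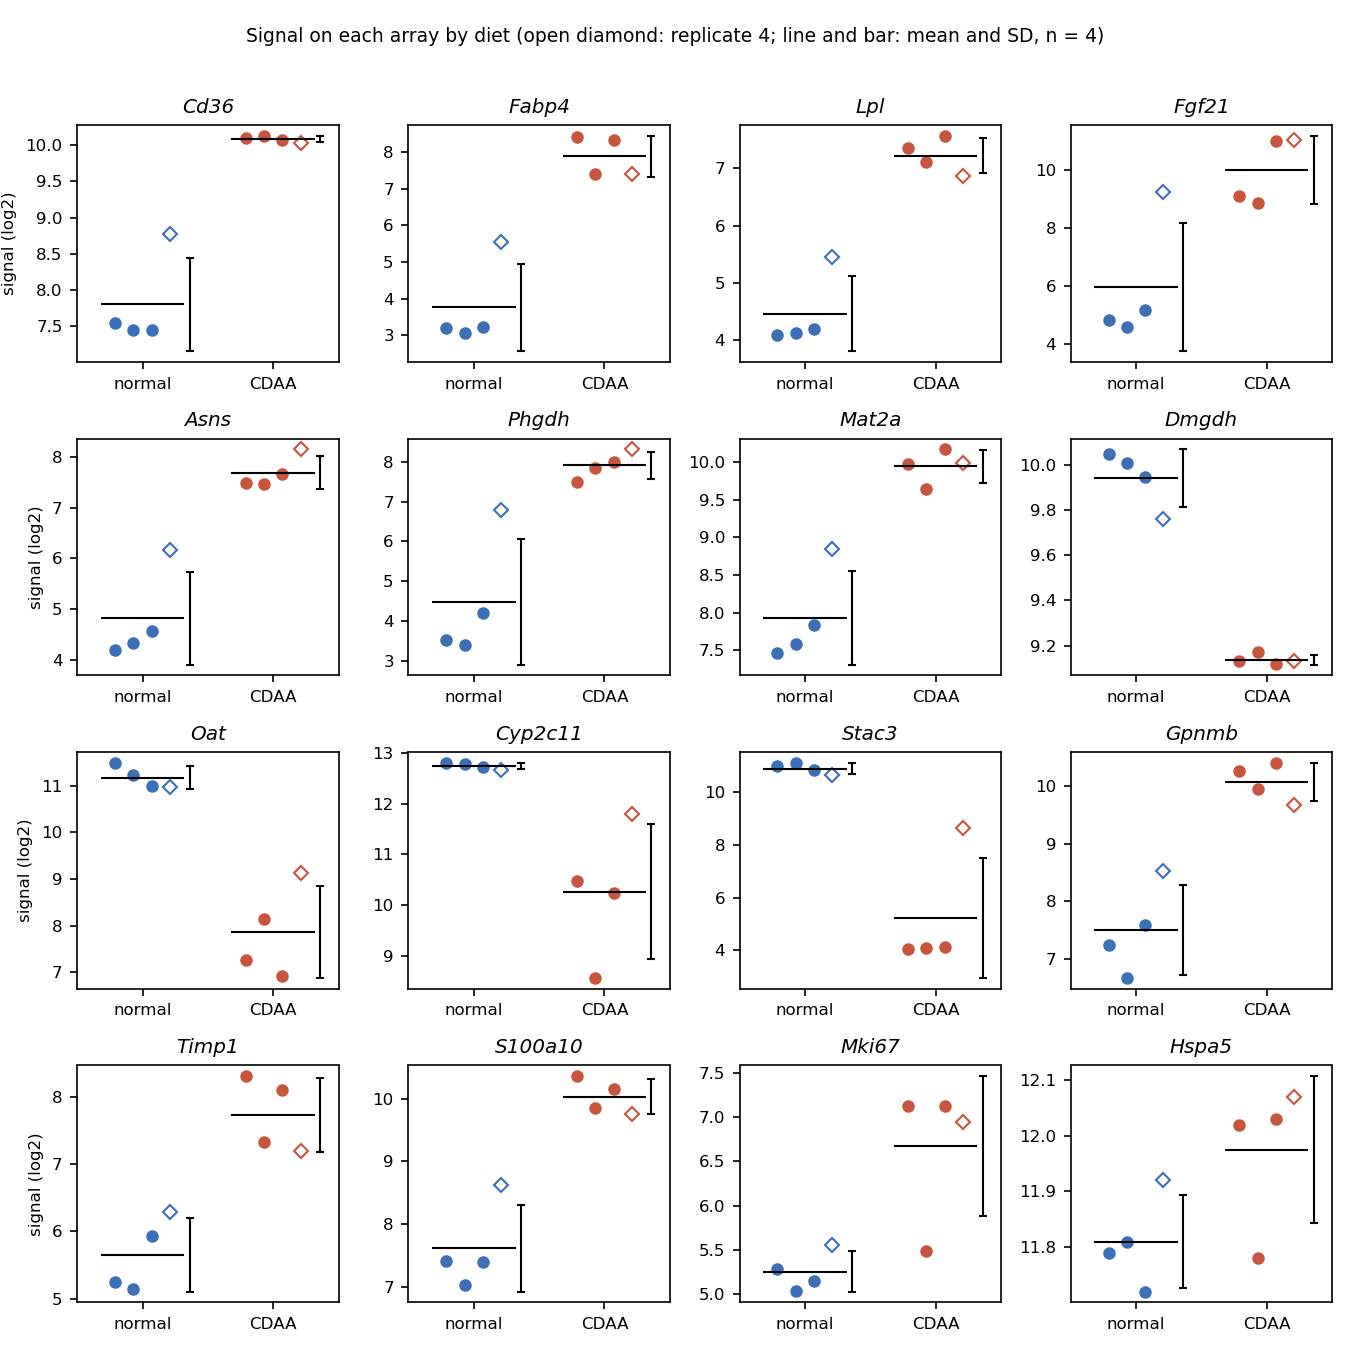
Log2 signal of 16 genes on the 4 normal-diet and 4 CDAA arrays, with the mean (line) and SD (bar) of each group and replicate 4 drawn as an open diamond. Normal array 4 stands above its group for Cd36, Fabp4, Lpl, Fgf21, Asns, Phgdh, Mat2a and S100a10, CDAA array 4 stands above its group for Stac3 and Cyp2c11, and CDAA array 2 lies with the normal diet for Mki67.

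The promoters of these genes were read because the members moved together. RefSeq promoter sequences (GRCr8, 250 bases before to 50 after the start) were searched on both strands for TGATGNAA, the composite site that C/EBP and ATF proteins are known to bind, where N is any base. The letters occurred in 3.82% of all 27457 promoters and in 2.15% of those of the tested genes. They occurred in 7 of 22 promoters of ATF4-list genes that rose (31.8%) and in 7 of 16 promoters of the tRNA synthetases (43.8%), with 1 gene in both lists. Over the whole ATF4 list they occurred in 8 of 27 promoters (29.6%), among them that of Slc1a4, which was not called. Among all genes over 2-fold higher the share was 6.32%, and among those over 2-fold lower 2.13%. A match is a description of the letters and does not show binding. Since the ATF4 list was drawn up by pathway, an excess of an ATF site in it can follow from that choice and is not a test. The 250 bases before the start are given for 6 genes of the ATF4 list that rose, because they carry the match, printed 5′ to 3′ on the gene's strand with the match, in either orientation, in capitals.
Fgf21 (chr1:105221377-105221626, - strand): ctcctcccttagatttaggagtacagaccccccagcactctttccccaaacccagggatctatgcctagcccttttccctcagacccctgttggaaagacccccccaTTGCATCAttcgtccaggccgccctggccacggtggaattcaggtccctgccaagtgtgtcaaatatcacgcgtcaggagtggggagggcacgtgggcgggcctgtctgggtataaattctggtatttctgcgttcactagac
Nupr1 (chr1:190645902-190646151, - strand): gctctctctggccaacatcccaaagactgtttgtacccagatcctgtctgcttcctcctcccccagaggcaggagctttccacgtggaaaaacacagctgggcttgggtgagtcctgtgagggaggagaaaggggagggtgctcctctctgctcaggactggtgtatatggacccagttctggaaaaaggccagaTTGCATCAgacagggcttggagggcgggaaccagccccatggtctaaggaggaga
Trib3 (chr3:161275534-161275783, - strand): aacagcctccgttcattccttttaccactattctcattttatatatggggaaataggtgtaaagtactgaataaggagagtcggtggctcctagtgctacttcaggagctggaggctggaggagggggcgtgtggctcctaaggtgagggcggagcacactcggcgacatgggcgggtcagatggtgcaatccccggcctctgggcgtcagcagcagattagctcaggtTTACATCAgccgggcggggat
Chac1 (chr3:126795881-126796130, + strand): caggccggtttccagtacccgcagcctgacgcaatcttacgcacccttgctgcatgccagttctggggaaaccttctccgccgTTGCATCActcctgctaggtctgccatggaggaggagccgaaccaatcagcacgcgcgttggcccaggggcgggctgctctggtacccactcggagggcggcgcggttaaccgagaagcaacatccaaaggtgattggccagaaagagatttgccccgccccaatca
Slc7a1 (chr12:11664238-11664487, + strand): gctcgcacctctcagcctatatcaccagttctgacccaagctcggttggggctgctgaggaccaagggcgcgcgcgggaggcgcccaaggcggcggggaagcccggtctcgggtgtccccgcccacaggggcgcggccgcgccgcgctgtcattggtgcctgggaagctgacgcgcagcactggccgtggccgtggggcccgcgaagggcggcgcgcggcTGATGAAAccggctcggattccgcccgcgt
Pck2 (chr15:32997603-32997852, + strand): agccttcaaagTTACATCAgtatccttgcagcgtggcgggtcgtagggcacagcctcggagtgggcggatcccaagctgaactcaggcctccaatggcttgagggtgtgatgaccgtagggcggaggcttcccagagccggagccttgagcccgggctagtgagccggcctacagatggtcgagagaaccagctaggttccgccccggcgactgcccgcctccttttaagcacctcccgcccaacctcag

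The aminoacyl-tRNA synthetases, which load amino acids onto their tRNAs, rose nearly as a class. Of 17 measured cytosolic members 14 rose and 0 fell (14 higher and 0 lower without normal replicate 4), with a median of 0.57. The seryl enzyme gene Sars1 read 7.40, 7.63, 7.65 and 8.19 on the normal diet and 8.78, 8.45, 8.78 and 9.20 on CDAA, without overlap, and normal replicate 4 was the highest of its group (groups apart, 1.09 ± 0.173, adjusted p = 0.00019, and 1.24 without normal replicate 4). The isoleucyl enzyme gene Iars1, the histidyl Hars1 and the tyrosyl Yars1 differed by 0.87, 0.86 and 0.84 log2. The methionyl Mars1 (0.16), alanyl Aars1 (0.07) and threonyl Tars1 (-0.03) were not called. Their promoters carry the TGATGNAA letters too, as do those of Iars1, Cars1 and Yars1, so the match did not separate members that rose from members that were not called.

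Genes of the endoplasmic reticulum's protein-folding machinery did not share that rise. Of 22 measured chaperone and degradation genes 4 rose and 2 fell, with a median of 0.05. Hspa5, the abundant chaperone BiP, read 11.79, 11.81, 11.72 and 11.92 on the normal diet and 12.02, 11.78, 12.03 and 12.07 on CDAA, with the groups overlapping (groups overlapping, 0.17 ± 0.1, adjusted p = 0.219, and 0.20 without normal replicate 4). The chaperones Hsp90b1 (0.06) and Pdia4 (-0.17) were not called, and Sdf2l1, a stress-inducible partner of the BiP machinery, was lower on every CDAA array. It read 8.84, 8.87, 9.08 and 8.82 on the normal diet and 8.01, 8.19, 7.95 and 8.09 on CDAA (groups apart, -0.84 ± 0.085, adjusted p = 6.7e-06, and -0.87 without normal replicate 4). Dnajb9, a BiP co-chaperone, rose by 0.65 and the sensor gene Atf6 by 0.43. Atf6 lost its call with the mean of the gene's probe sets (0.14, adjusted p = 0.0883). The endoplasmic reticulum stress element, which is CCAAT and CCACG set 9 bases apart, occurred on either strand in 7 of 17 promoters of this list (41.2%) and 0.158% of those of all tested genes. It occurred in 0 of the 22 promoters of ATF4-list genes that rose, which says little for so rare an element. An excess of the element in the chaperone list can follow from the choice of that list. Among the 7 genes of the chaperone list that carried it, which include Hspa5, Hsp90b1, Xbp1 and Calr, none was called in either direction by limma. Calr gained a call with arrays centred on the median of the tested probe sets (adjusted p = 0.0403).

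Antioxidant genes rose in part. Of 26 measured genes of the NRF2 pathway, which answers oxidants and electrophiles, 13 rose and 1 fell (13 higher and 1 lower without normal replicate 4), with a median of 0.34. Gpx2, a glutathione peroxidase typical of the gut lining, read 4.47, 3.96, 3.83 and 6.29 on the normal diet and 8.28, 7.72, 8.57 and 8.03 on CDAA (groups apart, 3.51 ± 0.403, adjusted p = 1.51e-05, and 4.06 without normal replicate 4). Gsta3, a glutathione transferase, read 4.17, 3.68, 3.81 and 5.88 on the normal diet and 5.12, 8.35, 6.42 and 7.74 on CDAA, with normal replicate 4 above CDAA replicate 1 and a wide spread among the CDAA arrays (groups overlapping, 2.52 ± 0.608, adjusted p = 0.00414, and 3.02 without normal replicate 4). It differed by 3.12 without CDAA replicate 1. The sulfiredoxin gene Srxn1 rose by 1.45, the glutathione synthetase gene Gss by 0.95 and the rate-setting ligase subunit gene Gclc by 0.75, whereas the classic NRF2 target Nqo1 read 6.49, 6.13, 6.37 and 6.62 on the normal diet and 6.75, 7.21, 6.94 and 6.66 on CDAA and was not called (adjusted p = 0.114), although the groups did not overlap. Nqo1 gained a call with the 8 arrays of this comparison alone, with array weights or without hydrogen-treated CDAA replicate 2 (adjusted p = 0.0146 to 0.0417). Srxn1 differed by 0.76 log2 with the mean of the gene's probe sets. The core of the antioxidant response element, TGACNNNGC on either strand, was in 6 of 24 promoters of the list (25%) and in 14.8% of those of all tested genes. The match can overlap with the AP-1 motif TGANTCA, which was in 12.5% of the list's promoters and 5.2% of all tested. The antioxidant core was also in 10 of 27 promoters of the ATF4 list and 4 of 16 of the synthetases. It was thus not particular to the NRF2 list. Among the NRF2-list genes that carried it, some rose, such as Gpx2 and Gsta3, and others were not called. The 250 bases before the start of Gpx2, the member with the largest rise, are given with the antioxidant core in capitals.
Gpx2 (chr6:101230034-101230283, - strand): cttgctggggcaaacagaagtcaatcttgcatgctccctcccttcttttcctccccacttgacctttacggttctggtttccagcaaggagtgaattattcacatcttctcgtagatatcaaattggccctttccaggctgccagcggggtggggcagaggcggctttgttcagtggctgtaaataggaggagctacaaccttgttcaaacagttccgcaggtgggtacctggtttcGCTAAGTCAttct

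Serine synthesis was raised while serine breakdown was lowered. Phgdh, which starts serine synthesis from a glycolytic intermediate, read 3.53, 3.41, 4.22 and 6.78 on the normal diet and 7.48, 7.85, 7.99 and 8.31 on CDAA (groups apart, 3.42 ± 0.539, adjusted p = 0.000171, and 4.19 without normal replicate 4). The next enzymes were higher as well, Psat1 by 2.79 ± 0.396 and Psph by 0.86 ± 0.2 log2. Sds, which deaminates serine to pyruvate, read 7.78, 9.15, 8.52 and 8.31 on the normal diet and 5.39, 6.43, 6.00 and 6.86 on CDAA (groups apart, -2.27 ± 0.401, adjusted p = 0.000437, and -2.31 without normal replicate 4). Every CDAA array lay below every normal one. Over the whole list of 16 measured serine, glycine and folate genes 4 rose and 5 fell. The cytosolic folate enzymes Aldh1l1 and Ftcd fell by 0.99 and 0.75 log2, and the mitochondrial Shmt2 (0.09) and Aldh1l2 (0.13) were not called.

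Most genes that use S-adenosylmethionine or break down sulphur amino acids were lower. Of 18 measured genes of the methionine cycle and transsulfuration, 2 rose and 10 fell (2 higher and 10 lower without normal replicate 4), with a median of -0.32. Mat2a, the S-adenosylmethionine synthetase of cells outside the adult liver, was the main exception and read 7.47, 7.59, 7.83 and 8.84 on the normal diet and 9.98, 9.64, 10.17 and 9.99 on CDAA (groups apart, 2.01 ± 0.22, adjusted p = 1.01e-05, and 2.32 without normal replicate 4). Gnmt, an abundant methyltransferase that disposes of surplus S-adenosylmethionine, read 11.98, 11.96, 11.86 and 11.79 on the normal diet and 10.12, 10.52, 10.03 and 10.81 on CDAA (groups apart, -1.53 ± 0.199, adjusted p = 3.94e-05, and -1.56 without normal replicate 4). Cbs, which commits homocysteine to cysteine synthesis, read 9.11, 9.06, 9.05 and 8.82 on the normal diet and 7.80, 7.58, 7.28 and 7.93 on CDAA (groups apart, -1.36 ± 0.117, adjusted p = 2.75e-06, and -1.43 without normal replicate 4). In both, the groups were apart by more than the spread of either. The mitochondrial sulphide enzymes Ethe1 and Sqor fell by 1.32 and 0.93 log2 and the cysteine dioxygenase gene Cdo1 by 0.68, whereas Cth, which follows Cbs, was not called (-0.20, adjusted p = 0.111). Cth gained a call with arrays centred on the median of the tested probe sets (adjusted p = 0.0342).

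In choline metabolism the choline kinase genes rose and genes of choline oxidation fell, while the list as a whole was divided. Of 24 measured genes 6 rose and 7 fell (6 higher and 8 lower without normal replicate 4), with a median of -0.09. Chka, the kinase that traps choline inside the cell, read 7.68, 7.69, 8.04 and 8.13 on the normal diet and 8.88, 8.38, 8.68 and 8.86 on CDAA (groups apart, 0.82 ± 0.144, adjusted p = 0.000435, and 0.90 without normal replicate 4), and its relative Chkb rose by 0.35 log2. Chdh, which starts the oxidation of choline to betaine, fell by 0.73 log2. Dmgdh, which acts later in that chain, read 10.05, 10.01, 9.95 and 9.76 on the normal diet and 9.13, 9.17, 9.12 and 9.13 on CDAA (groups apart, -0.81 ± 0.062, adjusted p = 1.4e-06, and -0.87 without normal replicate 4). Its 4 CDAA arrays lay within 0.05 of each other. Bhmt2, a homocysteine methyltransferase, read 11.92, 11.88, 11.78 and 11.70 on the normal diet and 11.18, 11.07, 11.12 and 11.09 on CDAA (groups apart, -0.71 ± 0.0664, adjusted p = 4.63e-06, and -0.75 without normal replicate 4). Pemt, the methyltransferase that makes phosphatidylcholine without choline, read 10.09, 10.04, 10.12 and 10.08 on the normal diet and 9.96, 10.10, 10.03 and 10.07 on CDAA and was not called (log2 difference -0.04 ± 0.0646, adjusted p = 0.643). Pcyt1a, the gene of the rate-setting enzyme of the pathway from choline, was not called either (0.13).

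Amino acid breakdown was the list with the lowest median. Of 31 measured genes 1 rose and 22 fell (1 higher and 22 lower without normal replicate 4), and the median was -0.68. Oat, the ornithine aminotransferase, read 11.49, 11.23, 11.00 and 10.97 on the normal diet and 7.26, 8.14, 6.93 and 9.13 on CDAA (groups apart, -3.31 ± 0.36, adjusted p = 1.01e-05, and -3.38 without normal replicate 4). The CDAA arrays spanned over 2 log2 units, and all lay below the normal diet. Genes for the breakdown of proline (Prodh, -1.34), tryptophan (Kmo, -1.23), lysine (Aass, -1.24), histidine (Hal, -1.26), glutamine (Gls2, -1.28) and leucine (Ivd, -0.94) all fell. The decreases were thus spread over enzymes of different amino acids. The single rise was Glud1, the glutamate dehydrogenase (0.40). Tat, the tyrosine aminotransferase of fasting and glucocorticoid action, was not called (0.95 ± 0.497, adjusted p = 0.151). Normal replicate 4 was closer to its own group here than for rising genes, at a median of 12.8% of the way to CDAA over the 23 members called without it. Tat gained a call when CDAA replicate 2 was left out (adjusted p = 0.0237). Tat gained a call with array weights (adjusted p = 0.0288). Prodh differed by -0.69 log2 with the mean of the gene's probe sets.

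Genes of nitrogen disposal fell by less. Of 11 urea cycle and ammonia genes 1 rose and 5 fell (3 without CDAA replicate 3), with the mitochondrial carrier Slc25a13 at -0.68 and the cycle enzymes Otc and Arg1 at -0.48 and -0.42. The rate-setting Cps1 (-0.11) and Ass1 (-0.27) were not called, and Asl rose by 0.39. Arg1 lost its call when CDAA replicate 3 was left out (adjusted p = 0.0546). Ass1 gained a call when CDAA replicate 2 was left out (adjusted p = 0.0208). Asl lost its call when normal replicate 1, 2 or 3 or CDAA replicate 2 or 4 was left out (adjusted p = 0.0693 to 0.142). Cps1 gained a call with arrays centred on the median of the tested probe sets or with the mean of the gene's probe sets (adjusted p = 0.0031 to 0.0229). Ass1 gained a call with array weights (adjusted p = 0.0214). Asl lost its call under several other settings (adjusted p = 0.0509 to 0.0929). Amino acid transporters split, with 9 of 25 higher and 7 lower. The taurine transporter Slc6a6 fell most, at 8.64, 8.19, 8.49 and 8.43 on the normal diet and 6.59, 5.16, 6.74 and 6.92 on CDAA (groups apart, -2.09 ± 0.326, adjusted p = 0.000163, and -2.09 without normal replicate 4), and CDAA replicate 2 lay below the rest. The branched-chain and aromatic carriers Slc43a1 and Slc16a10 fell by 1.59 and 1.10 log2, and the liver's system A carrier Slc38a4 by 0.93.

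In lipid handling, several genes of fatty acid uptake that are usual outside hepatocytes rose strongly, while the list as a whole was divided. Of 22 measured genes 7 rose and 6 fell (3 without normal replicate 1), with a median of 0.13. Cd36, the fatty acid translocase, read 7.55, 7.45, 7.45 and 8.77 on the normal diet and 10.10, 10.13, 10.07 and 10.03 on CDAA (groups apart, 2.28 ± 0.227, adjusted p = 6.13e-06, and 2.60 without normal replicate 4). The CDAA arrays lay within 0.1 log2 of each other and normal replicate 4 stood above its group without reaching them. Lpl, which releases fatty acids from lipoproteins and is normally low in adult liver, read 4.09, 4.13, 4.20 and 5.45 on the normal diet and 7.35, 7.11, 7.57 and 6.86 on CDAA (groups apart, 2.76 ± 0.239, adjusted p = 2.75e-06, and 3.08 without normal replicate 4). Fabp4, the fatty acid carrier of adipocytes and macrophages, read 3.20, 3.05, 3.23 and 5.54 on the normal diet and 8.40, 7.39, 8.34 and 7.40 on CDAA (groups apart, 4.13 ± 0.444, adjusted p = 9.4e-06). Normal replicates 1 to 3 were below the detection line of 3.68, and without normal replicate 4 it was at least 18.4-fold higher. The lipoprotein receptor gene Vldlr, which rises under cell stress, differed by 1.45, and Fabp2, the intestinal fatty acid-binding protein, by 2.32. Among the lowered genes were those of hepatocyte fatty acid activation and lipid uptake, Acsl1 (12.29, 12.30, 12.25 and 12.13 on the normal diet and 11.31, 11.73, 11.10 and 11.51 on CDAA, difference -0.83) and the hepatic lipase gene Lipc (-0.63). Fabp4 and Lpl are also expressed by fat cells and macrophages. The fat cell hormones were at the detection line, as given above, and of the 9 adipose markers measured, Fabp4 and Lpl were the 2 that rose and 2 fell. The summed linear signal of that list was 5959 to 6988 on the normal diet and 4869 to 6594 on CDAA, and the macrophage markers that moved with Fabp4 and Lpl are given further on. Their part in these rises was not tested.

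Storage and synthesis genes were mixed. Of 18 lipid droplet genes 5 rose and 4 fell. Cidea, a droplet fusion protein typical of brown fat, read 5.34, 4.93, 4.89 and 5.89 on the normal diet and 7.22, 7.40, 7.19 and 6.87 on CDAA (groups apart, 1.91 ± 0.21, adjusted p = 1.08e-05, and 2.12 without normal replicate 4). Plin2, the main droplet coat protein of fatty liver, rose by 0.46 with the normal replicate 4 signal of 11.54 just above the lowest CDAA signal of 11.53, and G0s2, an inhibitor of lipolysis, by 0.94. Pnpla3, a lipid droplet lipase, read 4.66 to 6.44 on the normal diet and 3.75 to 4.44 on CDAA (-1.42, adjusted p = 0.0434). Of 23 synthesis genes 5 rose and 6 fell. The fatty acid synthase gene Fasn read 10.02, 9.85, 9.22 and 9.95 on the normal diet and 9.55, 10.40, 10.17 and 10.23 on CDAA, with overlapping groups (0.33 ± 0.224, adjusted p = 0.277). The regulators Srebf1 and Mlxipl fell by 0.55 and 0.50, whereas the elongase gene Elovl6 and the desaturase gene Scd2 rose by 1.27 and 1.68. Elovl5, an elongase of polyunsaturated fatty acids, fell by 0.94. Plin2 lost its call when normal replicate 1 or 3 or CDAA replicate 1 or 4 was left out (adjusted p = 0.0505 to 0.0781). Pnpla3 lost its call when normal replicate 1, 2 or 4 or CDAA replicate 1, 2, 3 or 4 was left out (adjusted p = 0.0568 to 0.136). Elovl6 lost its call when normal replicate 3 was left out (adjusted p = 0.0537). Pnpla3 lost its call under several other settings (adjusted p = 0.0504 to 0.0804). Pnpla3 differed by -0.67 log2 with the mean of the gene's probe sets. Scd2 differed by 0.82 log2 with the mean of the gene's probe sets.

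Lists of lipid export and oxidation were divided too, and in that of sterol synthesis more genes fell than rose. Of 22 lipoprotein genes 6 rose and 7 fell. Mttp, which loads lipid onto apolipoprotein B, read 10.17, 10.31, 10.35 and 10.31 on the normal diet and 10.57, 10.67, 10.72 and 10.54 on CDAA (groups apart, 0.34 ± 0.0633, adjusted p = 0.000654, and 0.35 without normal replicate 4), Apob itself was not called (0.04), and Apoa4 fell by 1.03. Of 31 oxidation and thioesterase genes 8 rose and 6 fell, and the genes that rose most, Acot1, Vnn1, Acot2 and Cpt1b, are known targets of PPARα. Acot1, a cytosolic acyl-CoA thioesterase, read 3.23, 3.40, 2.97 and 3.83 on the normal diet and 7.78, 6.46, 6.07 and 5.99 on CDAA (groups apart, 3.22 ± 0.367, adjusted p = 1.47e-05). It too was below the detection line on normal replicates 1 to 3, and was at least 7.44-fold higher without normal replicate 4. The pantetheinase gene Vnn1 rose by 2.88 and the muscle-type carnitine transferase gene Cpt1b by 1.24. The hepatic Cpt1a (0.22), Acadm (-0.14), Ehhadh (0.11) and Ppara itself (0.10) were not called, and the peroxisomal bile acid oxidase gene Acox2 fell by 1.13. Cpt1a gained a call when CDAA replicate 3 was left out (adjusted p = 0.014). Acadm gained a call when CDAA replicate 1 was left out (adjusted p = 0.018). Acadm gained a call with arrays centred on the median of the tested probe sets (adjusted p = 0.0384). Of 20 cholesterol genes 2 rose and 7 fell. Sqle, which oxidises squalene, rose by 0.89, and Tm7sf2, a sterol reductase, fell by 1.47.

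More drug-metabolising and sex-dependent genes were lower than higher on CDAA, and single genes such as Cyp2c11 differed widely among the CDAA rats. The list medians did not spread as widely. Against normal replicates 1 to 3, they were -0.64, -0.49, -0.67 and -0.39 log2 on the 4 CDAA arrays for the cytochromes. For the growth hormone axis they were -0.37, -0.58, -0.57 and -0.44. Of 25 cytochromes of drug and steroid metabolism 2 rose and 16 fell (1 higher and 16 lower without normal replicate 4), with a median of -0.56, and of 25 genes of the growth hormone axis 2 rose and 13 fell, with a median of -0.41. Cyp2c11, the main male-specific cytochrome of rat liver, read 12.80, 12.79, 12.73 and 12.66 on the normal diet and 10.47, 8.56, 10.24 and 11.80 on CDAA (groups apart, -2.48 ± 0.666, adjusted p = 0.00841, and -2.51 without normal replicate 4). The normal arrays lay within 0.14 of each other, whereas CDAA replicate 2 was over 3 log2 units below CDAA replicate 4. Obp3, a secreted lipocalin, read 12.24, 12.42, 12.45 and 11.74 on the normal diet and 7.13, 4.37, 5.96 and 10.34 on CDAA (groups apart, -5.26 ± 0.827, adjusted p = 0.000169, and -5.42 without normal replicate 4). Stac3, known from muscle excitation, read 10.99, 11.13, 10.84 and 10.68 on the normal diet and 4.04, 4.08, 4.13 and 8.65 on CDAA (groups apart, -5.69 ± 0.71, adjusted p = 2.87e-05, and -5.76 without normal replicate 4). On 3 CDAA arrays it was close to the detection line and on the fourth it was not. The differences were -4.40 without CDAA replicate 2 and -6.39 without CDAA replicate 4 for Obp3 and -6.83 without CDAA replicate 4 for Stac3. Obp3 differed by -5.88 log2 with the mean of the gene's probe sets. The muscle troponin genes of the muscle marker list, which also holds Stac3, Tnnc2 (0.20), Tnnt3 (0.01) and Tnni2 (-0.05), were not called.

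CDAA replicate 4 was also the highest CDAA array for the steroid-metabolising Cyp3a9 (8.68, 8.71, 8.88 and 7.79 on the normal diet and 4.05, 3.77, 4.01 and 5.74 on CDAA) and the methyltransferase gene Inmt (9.00, 9.01, 8.39 and 8.59 on the normal diet and 3.70, 4.56, 3.65 and 6.36 on CDAA, and a difference of -4.18, or -4.78 without CDAA replicate 4). For all of Stac3, Obp3, Cyp3a9, Inmt and Oat it still lay below every normal array. CDAA replicate 2 was the lowest for Cyp2c11, Obp3, Mup5 and Igfals but not for Stac3 or Inmt. Mup5, a major urinary protein gene, differed by -3.01, and by -2.37 without CDAA replicate 2. Igfals, the carrier subunit of circulating IGF1, and Ghr, the growth hormone receptor gene, fell by 1.66 ± 0.185 and 1.12 ± 0.122 log2. Igf1, the growth factor that growth hormone induces in liver, read 12.69, 12.65, 12.71 and 12.59 on the normal diet and 12.07, 11.75, 11.97 and 12.24 on CDAA (groups apart, -0.65 ± 0.081, adjusted p = 2.73e-05, and -0.68 without normal replicate 4). The female-biased Cyp2c12 was not called (-0.78, adjusted p = 0.0983). Cyp2c12 gained a call when CDAA replicate 2 was left out (adjusted p = 0.0402). Cyp2c12 gained a call with the 8 arrays of this comparison alone or with array weights (adjusted p = 0.0249 to 0.0297). Mup5 differed by -2.38 log2 with the mean of the gene's probe sets. Bcl6, a transcriptional repressor, read 9.94, 9.31, 6.99 and 9.01 on the normal diet and 5.19, 5.02, 6.82 and 7.15 on CDAA, with normal replicate 3 among the CDAA arrays (groups overlapping, -2.77 ± 0.762, adjusted p = 0.00979, and -2.70 without normal replicate 4). It differed by -3.38 without normal replicate 3. Probe sets of near-identical relatives can bind each other's RNA, which applies to the Cyp2c, Cyp2a and Cyp3a families, Obp3, Mup5, Acot1, Gsta3 and Sult2a6.

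Of other specialised hepatocyte lists, those of bile acid and plasma protein genes had more falls than rises, and the acute phase list was mixed. Of 22 bile acid genes 3 rose and 12 fell, with a median of -0.45. The sodium-dependent bile acid importer Slc10a1 read 12.18, 12.19, 12.16 and 12.17 on the normal diet and 11.34, 11.75, 11.43 and 11.77 on CDAA (groups apart, -0.60 ± 0.127, adjusted p = 0.00162, and -0.60 without normal replicate 4), while the basolateral exporter Abcc3 rose by 1.20. Cyp7a1, the rate-setting enzyme of bile acid synthesis, read 9.87, 9.36, 8.80 and 9.30 on the normal diet and 6.94, 9.09, 8.03 and 9.42 on CDAA with wide spread and was not called (-0.96 ± 0.416, adjusted p = 0.0837). Cyp7a1 gained a call when CDAA replicate 2 or 4 was left out (adjusted p = 0.0197 to 0.0411). Of 33 plasma protein genes 2 rose and 14 fell. The complement gene C6 fell, with 9.81 to 10.70 on the normal diet and 7.58 to 8.46 on CDAA. Serpina7, the thyroxine-binding globulin gene, read 6.61, 6.20, 4.80 and 8.44 on the normal diet and 10.14, 10.52, 10.12 and 9.77 on CDAA (groups apart, 3.63 ± 0.488, adjusted p = 4.96e-05, and 4.27 without normal replicate 4). Of 20 acute phase genes 5 rose and 4 fell, the rat acute phase protein A2m by 2.17 and the endotoxin-binding protein Lbp by 1.77, against decreases of 1.11 for Crp and 0.84 for the receptor gene Il6r. Haptoglobin (Hp, 0.10) and Lcn2 (0.00) were not called. Cyp7a1 gained a call with array weights (adjusted p = 0.0236). Hp gained a call after another quantile normalisation or with array weights (adjusted p = 0.0294 to 0.0486).

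Hepatocyte transcription factors and nuclear receptors had 8 of 23 members lower (5 without normal replicate 2 or CDAA replicate 3) and 0 higher, with Nr5a2, a regulator of bile acid genes, at -0.97 ± 0.155 and Hnf4a, a central regulator of hepatocyte genes, at -0.27 with overlapping groups. Hnf4a lost its call when normal replicate 2 or 4 or CDAA replicate 2 or 3 was left out (adjusted p = 0.0638 to 0.123). Hnf4a lost its call with the 8 arrays of this comparison alone, after another quantile normalisation or with the mean of the gene's probe sets (adjusted p = 0.0793 to 0.104). Of 20 glucose and glycogen genes 2 rose and 9 fell (5 without CDAA replicate 3). Ppp1r3b, which directs phosphatase to glycogen, fell by 1.56 ± 0.26 and the glucose-releasing G6pc1 by 0.84, while Pck1 was not called (-0.28). Pck1 gained a call when CDAA replicate 4 was left out (adjusted p = 0.00495). Pck1 gained a call with arrays centred on the median of the tested probe sets (adjusted p = 0.0343). Of 13 glycolytic genes usual outside hepatocytes 5 rose and 0 fell, led by the aldolase gene Aldoa (1.04 ± 0.131). Of 13 conjugation enzymes 1 rose (2 without normal replicate 4, 2 after another quantile normalisation, 2 with arrays centred on their median, 2 with an intensity trend and robust variance, 2 with array weights and 2 with the mean of the gene's probe sets) and 5 fell. Periportal and pericentral marker genes mark the ends of the liver lobule. In the periportal list 3 of 14 rose and 5 fell, and in the pericentral list 2 of 16 rose and 6 fell, with Cyp2e1 at 0.26 and Oat at -3.31 within the latter.

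For gene families with 1 member usual in adult hepatocytes and another usual elsewhere, 28 pairs were listed by hand. They were chosen with earlier results of these data known, so the counts describe these pairs and are not a test. Both members were measured in 21. The hepatocyte member was lower in 12 and higher in 2 of the 21, and the other member was higher in 13 and lower in 0, against 27.3% higher and 13.3% lower among all genes. In 7 pairs the hepatocyte member fell and the other rose, and in 0 pairs the reverse. These 7 were Fabp1 and Fabp4, Lipc and Lpl, Mat1a and Mat2a, Igfbp4 and Igfbp1, Slc38a4 and Slc38a2, Slc7a2 and Slc7a1, and Pygl and Pygb. Igfbp1 was itself among the genes with the strongest mean signal in these livers, so its pair fits the description poorly. The fall of the hepatocyte member was often small, -0.16 for Fabp1 and -0.19 for Slc7a2. Fabp1 lost its call when normal replicate 1, 2 or 3 or CDAA replicate 2, 3 or 4 was left out (adjusted p = 0.0566 to 0.0914). Slc7a2 lost its call when normal replicate 2 or 3 or CDAA replicate 1, 2 or 3 was left out (adjusted p = 0.0596 to 0.145). Mat1a lost its call when normal replicate 2 or CDAA replicate 1 or 3 was left out (adjusted p = 0.0762 to 0.102). In Mat1a, the adult S-adenosylmethionine synthetase gene, the signals were 11.26, 11.38, 11.22 and 11.28 on the normal diet and 10.70, 11.17, 10.67 and 11.26 on CDAA, with CDAA replicates 1 and 3 low and replicates 2 and 4 close to the normal diet (groups overlapping, -0.34 ± 0.111, adjusted p = 0.0274, and -0.34 without normal replicate 4). Pairs without such a switch included the glucose transporters Slc2a2 (0.19) and Slc2a1 (0.03) and the glycogen synthases Gys2 (-0.01) and Gys1 (-0.14). Slc2a2 lost its call when normal replicate 1 or 3 or CDAA replicate 2 was left out (adjusted p = 0.0744 to 0.127). Fabp1 lost its call after another quantile normalisation (adjusted p = 0.0599). Slc7a2 lost its call with the 8 arrays of this comparison alone, after another quantile normalisation or with arrays centred on their median (adjusted p = 0.0542 to 0.0981). Mat1a lost its call with the 8 arrays of this comparison alone (adjusted p = 0.0771). Slc2a2 lost its call with the 8 arrays of this comparison alone or with arrays centred on the median of the tested probe sets (adjusted p = 0.0896 to 0.151). Gys1 gained a call with arrays centred on the median of the tested probe sets (adjusted p = 0.0398).

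**Figure D4:**
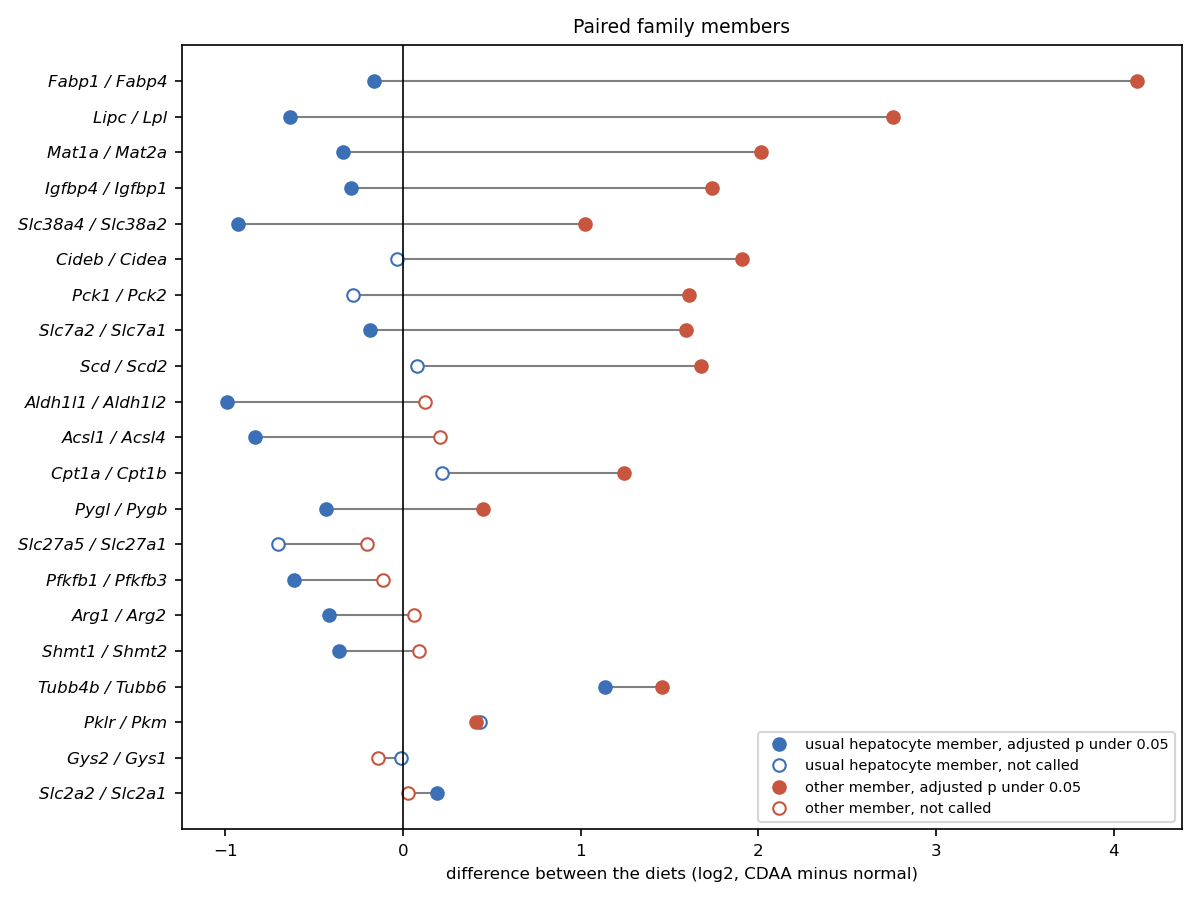
Log2 difference between the diets (CDAA minus normal) for 21 pairs of family members, with the usual hepatocyte member in blue and the other in red, filled where the adjusted p was under 0.05. In 7 pairs a filled blue point lies left of 0 and a filled red point right of it, and the widest gap is that of Fabp1 and Fabp4.

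Genes of macrophages that take up lipid rose, and so did some of those of resident Kupffer cells. Of 16 measured markers of lipid-associated and recruited macrophages 10 rose, 9 of them over 2-fold, and 1 fell (10 higher and 1 lower without normal replicate 4), with a median of 1.27. The sum of their linear signals was 1743 to 2560 on the normal diet and 4271 to 5469 on CDAA. Of 14 markers of Kupffer and resident macrophages 8 rose (1 without CDAA replicate 3, 2 without normal replicate 2, 3 without normal replicate 1 or CDAA replicate 4, 5 without CDAA replicate 1, 4 with the 8 arrays of this comparison alone, 4 after another quantile normalisation and 4 with arrays centred on the median of the tested probe sets) and 2 fell, with a median of 0.45 and sums of 3642 to 5714 and 4945 to 6330. The count for Kupffer cells thus rested on single arrays. In bulk tissue a change in the number of cells of a type and a change in RNA per cell cannot be told apart.

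Gpnmb, a lysosomal glycoprotein of lipid-laden macrophages, read 7.23, 6.66, 7.59 and 8.52 on the normal diet and 10.27, 9.95, 10.41 and 9.67 on CDAA (groups apart, 2.58 ± 0.301, adjusted p = 1.76e-05, and 2.92 without normal replicate 4). Mmp12, the macrophage elastase, read 4.18, 4.42, 4.55 and 5.89 on the normal diet and 8.66, 8.11, 8.87 and 7.73 on CDAA (groups apart, 3.58 ± 0.315, adjusted p = 2.85e-06, and 3.96 without normal replicate 4). In both, all CDAA arrays were high and normal replicate 4 was the highest of its group. Cd9 rose by 2.17, the fungal receptor gene Clec7a by 1.52, the galectin gene Lgals3 by 1.19 and Spp1, which encodes osteopontin, by 0.60, while Trem2 stayed at 3.94 to 4.02 on the normal diet and 3.93 to 4.33 on CDAA, close to the detection line, and was not called. Clec4f, a lectin made by Kupffer cells in rodents, read 9.57, 9.17, 9.79 and 9.68 on the normal diet and 8.75, 8.82, 8.86 and 9.34 on CDAA (groups overlapping, -0.61 ± 0.165, adjusted p = 0.00892, and -0.57 without normal replicate 4), whereas the general macrophage marker Cd68 rose by 0.91. Kupffer markers varied among normal livers too, with the list's median -0.46 log2 on replicate 2 against the mean of replicates 1 to 3. Spp1 lost its call when normal replicate 1 or CDAA replicate 1 or 3 was left out (adjusted p = 0.0604 to 0.0744). Spp1 lost its call with the 8 arrays of this comparison alone (adjusted p = 0.0543).

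Other immune lists differed from each other. Of 10 genes of antigen presentation by MHC class II 7 rose and 1 fell, with the invariant chain gene Cd74 at 9.35, 8.77, 9.74 and 9.52 on the normal diet and 10.02, 9.88, 10.33 and 10.05 on CDAA (groups apart, 0.73 ± 0.164, adjusted p = 0.00267, and 0.78 without normal replicate 4) and the transactivator gene Ciita at -0.20. Of 21 chemokine and adhesion genes 10 rose and 2 fell. The neutrophil attractant Cxcl1, the monocyte attractant Ccl2 and the adhesion molecule Vcam1 rose by 2.02, 1.74 and 1.37. Cxcl12, a constitutive chemokine, read 10.41, 10.31, 10.34 and 10.13 on the normal diet and 8.78, 9.39, 9.03 and 9.19 on CDAA (groups apart, -1.20 ± 0.118, adjusted p = 5.87e-06, and -1.26 without normal replicate 4). Of 15 lymphocyte genes 2 rose and 4 fell, with the cytotoxic granule gene Gzma at -0.70 and the T cell receptor subunit genes Cd3g at 0.09 (not called) and Cd3e at 0.17. Of 20 interferon-stimulated genes 3 rose and 1 fell, and of 4 neutrophil genes 0 rose and 2 fell. The pan-leukocyte gene Ptprc rose by 0.95. Ciita lost its call when normal replicate 1 or 2 or CDAA replicate 2, 3 or 4 was left out (adjusted p = 0.055 to 0.0953). Cd3e lost its call when normal replicate 1 or 4 or CDAA replicate 1, 3 or 4 was left out (adjusted p = 0.0764 to 0.148). Ciita lost its call with the 8 arrays of this comparison alone (adjusted p = 0.0513). Cd3e lost its call under several other settings (adjusted p = 0.0505 to 0.225).

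Most matrix genes rose, whereas the myofibroblast actin Acta2 was not called. Of 29 collagen and matrix genes 17 rose and 2 fell, with a median of 0.39, and of 22 proteases, inhibitors and crosslinkers 13 rose and 1 fell. Timp1, which inhibits matrix proteases, read 5.25, 5.15, 5.94 and 6.29 on the normal diet and 8.30, 7.33, 8.10 and 7.20 on CDAA (groups apart, 2.08 ± 0.29, adjusted p = 6.52e-05, and 2.29 without normal replicate 4), and the proteoglycan gene Dcn read 6.12, 6.19, 6.56 and 7.38 on the normal diet and 8.16, 8.52, 8.06 and 8.05 on CDAA (groups apart, 1.64 ± 0.206, adjusted p = 3.08e-05, and 1.91 without normal replicate 4). Col3a1, a fibrillar collagen, read 10.25, 10.32, 10.50 and 10.92 on the normal diet and 11.45, 11.07, 11.39 and 11.21 on CDAA (groups apart, 0.78 ± 0.118, adjusted p = 0.000119, and 0.92 without normal replicate 4). Col1a1 was not called (0.12 ± 0.132, adjusted p = 0.509), whereas its partner chain gene Col1a2 rose by 0.87. Acta2, the smooth muscle actin of activated myofibroblasts, read 5.08, 5.15, 5.35 and 5.42 on the normal diet and 5.48, 5.28, 5.41 and 5.26 on CDAA and was not called (0.11 ± 0.0763, adjusted p = 0.296). Of 18 stellate cell and myofibroblast genes 8 rose and 0 fell, among them Pdgfra (0.65), the retinol-esterifying enzyme gene Lrat (0.47) and desmin (Des, 0.35). Lrat lost its call when normal replicate 3 or CDAA replicate 3 or 4 was left out (adjusted p = 0.0529 to 0.0726). Des lost its call when normal replicate 2 was left out (adjusted p = 0.0502). Lrat lost its call after another quantile normalisation (adjusted p = 0.051). Normal replicate 4 was 57.3% of the way to CDAA at the median of the 19 matrix genes called without it. Of 17 endothelial genes 6 rose and 0 fell, with von Willebrand factor (Vwf) at 4.67, 4.71, 4.82 and 5.11 on the normal diet and 5.78, 6.01, 6.02 and 5.97 on CDAA (groups apart, 1.12 ± 0.0974, adjusted p = 2.75e-06, and 1.21 without normal replicate 4).

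Several of the strongest differences lay in genes outside these functions. Enc1, an actin-binding protein known from neurons, read 4.60, 4.39, 4.37 and 7.73 on the normal diet and 8.70, 8.50, 8.80 and 9.41 on CDAA (groups apart, 3.58 ± 0.528, adjusted p = 0.000101, and 4.40 without normal replicate 4). Sez6, a membrane protein known from neurons, read 7.77, 7.68, 7.68 and 7.39 on the normal diet and 4.41, 5.26, 4.62 and 5.65 on CDAA (groups apart, -2.65 ± 0.232, adjusted p = 2.85e-06, and -2.73 without normal replicate 4). Plscr1, a phospholipid scramblase, and Slc20a1, a phosphate carrier, read 4.74, 4.43, 5.05 and 5.79 on the normal diet and 8.01, 7.09, 7.83 and 7.47 on CDAA for the former and 7.03, 7.07, 7.00 and 8.80 on the normal diet and 9.80, 9.57, 9.47 and 10.25 on CDAA for the latter, and the groups did not overlap in either. Sult2a6 and Sult2a2, hydroxysteroid sulfotransferases of close sequence, rose by 3.51 and 2.66 log2, and Sult2a6 by 4.11 without normal replicate 4. Sult2a2 was below the detection line of 3.68 on normal replicates 1 to 3 and read 4.13, 8.92, 5.60 and 5.68 on CDAA. It was at least 5.29-fold higher without normal replicate 4, and differed by 3.31 without CDAA replicate 1 and 1.71 without CDAA replicate 2. Sult2a2 lost its call when normal replicate 1, 2 or 3 or CDAA replicate 2 was left out (adjusted p = 0.0594 to 0.0935). Sult2a2 lost its call with an intensity trend and robust variance (adjusted p = 0.0598). Enc1 differed by 2.03 log2 with the mean of the gene's probe sets. Of 27 hepatokines and other secreted factors 11 rose (7 without CDAA replicate 3) and 3 fell (1 without normal replicate 3). The stress hormone gene Gdf15 rose by 0.84, the insulin-like growth factor binding protein gene Igfbp2 by 1.93 and the matricellular genes Ccn1 and Ccn2 by 1.30 and 0.77 log2, whereas Inhbc, which encodes an activin subunit of liver, fell by 1.18. Gdf15 lost its call when normal replicate 1, 2 or 3 or CDAA replicate 3 or 4 was left out (adjusted p = 0.075 to 0.115). Ccn2 lost its call when normal replicate 1, 2 or 3 or CDAA replicate 1, 3 or 4 was left out (adjusted p = 0.0709 to 0.128). Gdf15 lost its call with the 8 arrays of this comparison alone or with an intensity trend and robust variance (adjusted p = 0.0533 to 0.103). Ccn2 lost its call under several other settings (adjusted p = 0.0529 to 0.0807). Among the falls, the epidermal growth factor receptor gene Egfr read 9.45, 9.45, 9.03 and 9.12 on the normal diet and 7.55, 6.65, 6.81 and 8.03 on CDAA (groups apart, 4.01-fold lower, adjusted p = 4.51e-05). Crym, a thyroid hormone-binding crystallin, and Enpep, an aminopeptidase that cleaves angiotensin, differed by -1.95 ± 0.165 and -1.83 ± 0.16 log2. Egfr differed by -1.39 log2 with the mean of the gene's probe sets. Enpep differed by -0.99 log2 with the mean of the gene's probe sets. Zfp37, a zinc finger gene, read 5.07, 5.69, 5.80 and 5.39 on the normal diet and 3.41, 3.09, 2.95 and 3.62 on CDAA, with all CDAA arrays under the detection line of 3.68, so that it was at least 3.5-fold lower.

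Annexin, keratin and cytoskeletal genes formed another group in which most members rose. Of 26 measured genes 21 rose and 1 fell (21 higher and 0 lower without normal replicate 4), with a median of 0.59. S100a10, the partner of annexin A2, read 7.41, 7.03, 7.39 and 8.62 on the normal diet and 10.36, 9.85, 10.16 and 9.75 on CDAA (groups apart, 2.42 ± 0.262, adjusted p = 9.77e-06, and 2.75 without normal replicate 4), and Anxa2 read 6.59, 6.37, 6.48 and 6.87 on the normal diet and 8.90, 7.50, 8.41 and 7.39 on CDAA (groups apart, 1.47 ± 0.29, adjusted p = 0.000998, and 1.57 without normal replicate 4). The epithelial keratin Krt8 rose by 1.04 and the tubulin Tubb6 by 1.46. Tubb6 differed by 0.75 log2 with the mean of the gene's probe sets. CDAA replicates 1 and 3 were the highest for Anxa2 and Anxa5, and replicates 2 and 4 were lower by about 1 log2 unit. Of 20 markers of bile ducts, progenitors and fetal liver 11 rose and 0 fell. The tight junction gene Cldn7 read 4.48, 4.28, 4.00 and 4.97 on the normal diet and 7.29, 5.05, 6.94 and 5.79 on CDAA (groups apart, 1.84 ± 0.381, adjusted p = 0.00146, and 2.01 without normal replicate 4), with CDAA replicate 2 next to the normal diet. The imprinted H19 read 4.72, 4.89, 5.10 and 5.51 on the normal diet and 7.39, 4.94, 8.20 and 6.55 on CDAA, with the same array low (groups overlapping, 1.72 ± 0.568, adjusted p = 0.0271, and 1.87 without normal replicate 4). It differed by 2.33 without CDAA replicate 2. H19 lost its call when normal replicate 1, 2 or 3 or CDAA replicate 1 or 3 was left out (adjusted p = 0.0516 to 0.101). H19 lost its call with an intensity trend and robust variance (adjusted p = 0.0513). The bile duct keratin Krt19 (0.13, adjusted p = 0.238) and the fetal protein Afp (0.04, adjusted p = 0.867) were not called.

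Genes of mitosis rose in part, and not on all CDAA arrays alike. Of 26 mitosis genes 10 rose (38.5%, against 27.3% of all genes) and 0 fell, with counts of rises of 6 without normal replicate 2 or 3 or CDAA replicate 1 or 3, 19 without CDAA replicate 2 and 19 with array weights, and with a median of 0.54. Against normal replicates 1 to 3, the median of the list was 0.88, -0.07, 0.83 and 0.52 log2 on the 4 CDAA arrays, so replicate 2 did not share the rise. The replication and G1/S list stood at 0.23, 0.10, 0.42 and 0.06 on the same arrays. Mki67, a marker of cycling cells, read 5.28, 5.03, 5.15 and 5.56 on the normal diet and 7.13, 5.49, 7.12 and 6.94 on CDAA (groups overlapping, 1.42 ± 0.397, adjusted p = 0.0111, and 1.52 without normal replicate 4). Of 24 replication and G1/S genes 6 rose (3 without CDAA replicate 3 and 10 with array weights) and 1 fell, a share of rises of 25% against 27.3% of all genes, with cyclin D1 (Ccnd1) at 0.66. Of 20 p53-related genes 6 rose (30%, near the 27.3% of all genes) and 1 fell. Cdkn1a, which encodes the cell cycle inhibitor p21, read 5.99, 5.59, 6.04 and 6.31 on the normal diet and 7.85, 5.18, 7.61 and 7.40 on CDAA and was not called (adjusted p = 0.0621), again with CDAA replicate 2 low, whereas the DNA damage gene Gadd45a rose by 1.61. Ccnd1 lost its call when normal replicate 1 or CDAA replicate 1 was left out (adjusted p = 0.075 to 0.0772). Cdkn1a gained a call when CDAA replicate 2 was left out (adjusted p = 2.26e-05). Without CDAA replicate 2 Cdkn1a differed by 1.64. Ccnd1 lost its call with the mean of the gene's probe sets (0.37, adjusted p = 0.244). Cdkn1a gained a call with array weights (adjusted p = 0.0031). Of 26 immediate early and MYC network genes 12 rose and 1 fell. Myc itself read 3.65, 3.90, 3.98 and 7.27 on the normal diet and 8.00, 7.48, 8.50 and 8.90 on CDAA, from near the detection line on normal replicates 1 to 3 to a raised normal replicate 4 (groups apart, 3.52 ± 0.579, adjusted p = 0.000246, and 4.38 without normal replicate 4).

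Among the lists of housekeeping systems, the proteasome had the fewest calls for its size. Of 34 respiratory chain and ATP synthase genes 10 rose (6 without normal replicate 2 and 5 with arrays centred on the median of the tested probe sets) and 2 fell, with the complex I subunit gene Ndufb10 lowest at -0.30 and the cytochrome oxidase subunit gene Cox4i1 highest at 0.36 log2. Of 20 mitochondrial chaperone and protease genes 10 rose (5 without normal replicate 3 or CDAA replicate 2, 6 without normal replicate 2, 5 after another quantile normalisation and 6 with arrays centred on the median of the tested probe sets) and 1 fell, led by the inner membrane protease gene Afg3l2 (0.59). Of 15 cytosolic heat shock genes 4 rose and 2 fell, with the small heat shock protein Hspb1 at 1.32 ± 0.191. Of 27 proteasome genes 2 rose and 3 fell, both shares below the background. Of 25 lysosomal genes 8 rose, among them the protease gene Ctsd by 0.65, and 1 fell. The shares of rises in the respiratory chain (29.4%), heat shock (26.7%) and lysosomal (32%) lists were near the 27.3% of all genes. Of 16 clock genes 1 rose and 4 fell, and Hlf, a clock output factor, read 7.69, 7.94, 7.33 and 7.30 on the normal diet and 5.30, 6.52, 5.70 and 5.49 on CDAA (groups apart, -1.81 ± 0.263, adjusted p = 8.93e-05, and -1.90 without normal replicate 4). Of 18 iron and metal genes 5 rose and 5 fell (3 without normal replicate 1 or 2 or CDAA replicate 4 and 8 with arrays centred on the median of the tested probe sets), with the transferrin receptor Tfrc at 0.85 and its relative Tfr2 at -0.67.

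Normal replicate 4 did not lie equally far towards CDAA in every function. Over all genes called without it, its median position was 32.9% of the way to the CDAA mean. It was 65.8% for Kupffer cell genes, 57.3% for matrix, 53.9% for the ATF4 list, 51.4% for immediate early genes and 50.8% for the NRF2 list. It was 12.8% for amino acid catabolism, 15.6% for the methionine cycle, 15.8% for the growth hormone axis and 16.8% for the cytochromes. Other stress and macrophage lists lay nearer to the middle or lower, with 38.1% for recruited macrophages, 28.1% for endoplasmic reticulum chaperones and 20.7% for cytosolic heat shock proteins. Kupffer cell genes also differed among the other normal arrays, with a list median of 0.33 log2 on replicate 3 and 0.43 on replicate 4 against the mean of replicates 1 to 3. Among single genes, Ccn1 stood 90.5% of the way, Atf3 88.3%, Trib3 86.5% and Fgf21 85.1%. The strongly lowered genes Stac3 and Cyp2c11 read 10.68 and 12.66 on it, beside 4.04 to 8.65 and 8.56 to 11.80 on CDAA.

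**Figure D5:**
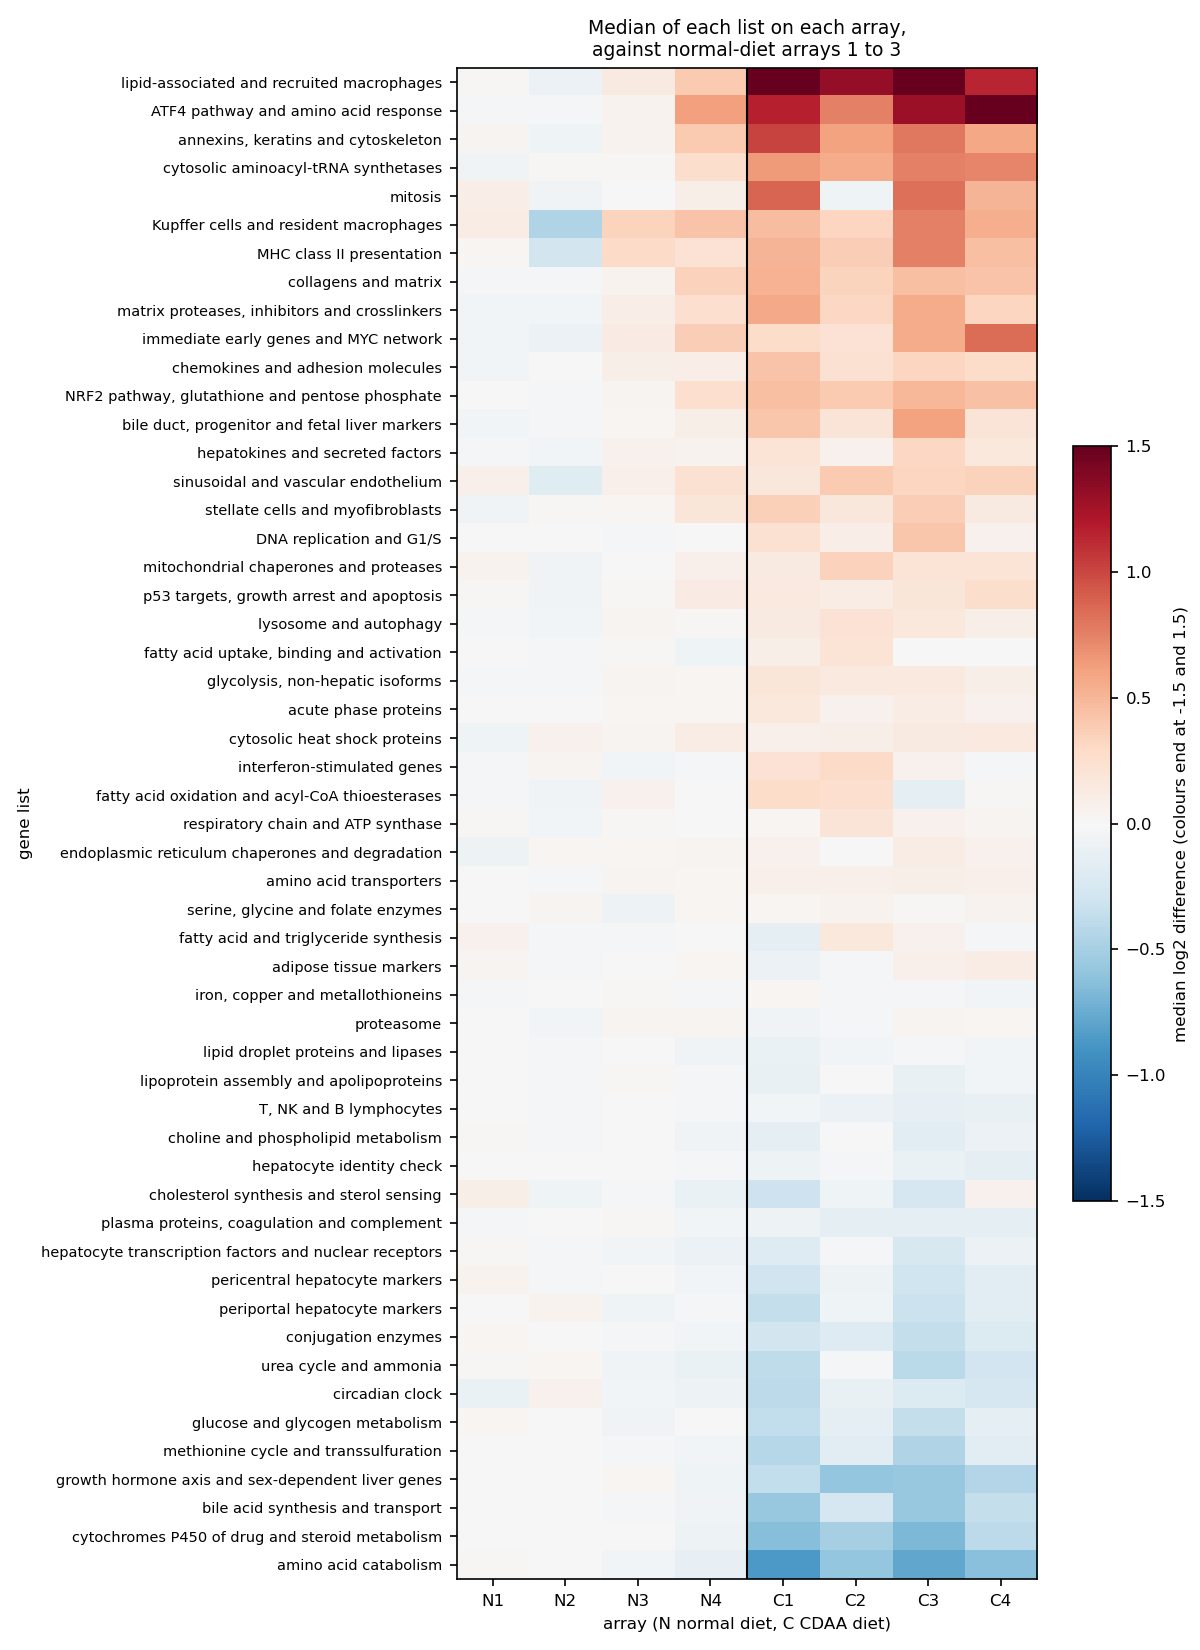
Median over each gene list of the log2 difference of each array from the mean of normal arrays 1 to 3, which places those 3 arrays near 0 by construction, with red above and blue below. Normal array 4 is red for the ATF4, cytoskeletal and matrix lists and pale for the hepatocyte lists at the bottom, normal array 3 is red for the Kupffer list too, and CDAA array 2 is pale for mitosis.

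The other 8 rats of the series gave a second measurement of the same diet contrast, in hydrogen-treated animals and with no array in common, although the residual spread was estimated from all 16 arrays together. There, 49.5% of the genes were called, and 3740 of the 4640 genes called here were called in the same direction, and 3 in the opposite one. Of the 362 genes over 2-fold, 345 were called in the same direction. Across genes the effects of diet in the 2 pairs had a Pearson correlation of 0.906, and genes are not independent replicates. A test of the difference between the effects called 1 of 22634 probe sets (0.00442%), which has no gene name here, and 0 genes in limma, although 1060 genes had an unadjusted p under 0.05. Without CDAA replicate 2 it called 21 probe sets, without normal replicate 3 it called 3, and without hydrogen-treated CDAA replicate 3 it called 2. The ATF4 list had 24 higher and 0 lower here and 15 and 2 under hydrogen. Atf4 differed by 1.01 here and -0.08 there (interaction adjusted p = 0.308), Chac1 by 1.77 and -0.31 (0.332), Chka by 0.82 and -0.06 (0.233) and Bcl6 by -2.77 and 1.05 (0.332), none of which passed the threshold. Asns (2.87 and 3.40), Phgdh (3.42 and 4.21) and Fabp4 (4.13 and 4.73) had differences of similar size in both pairs.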

How the data were processed

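The deposited values are log2 signals that the authors summarised per probe set by robust multi-array averaging (RMA) in Affymetrix Expression Console, per the submitters' processing notes, without a version. RMA gives every array the same distribution, so a shift of all RNA would not show. From 31139 probe sets, 97 manufacturer's controls were left out, and 22634 were tested that lay above the 30th percentile of values (3.68 log2) on at least 4 arrays. With limma 3.58.1 in R 4.3.3, a linear model of 4 group means was fitted over the 16 arrays (12 residual degrees of freedom), and p-values were adjusted over all tested probe sets by Benjamini-Hochberg. Called means an adjusted p under 0.05. Each gene is represented by its probe set of highest mean, named by the platform's annotation. The levels in this text are probe set signals and are not compared between genes. The number of arrays, 4 per group, limits the precision, and the labels give them as separate samples without naming the animals. Members, gene lists, isoform pairs and motifs were chosen with earlier results of these data known. Named genes are the 25 strongest non-overlapping calls in each direction, the strongest called and most highly expressed uncalled genes of each list, the isoform pairs, the strongest calls among abundant genes, and the genes most displaced on normal replicate 4. Chosen after their values were seen were Aass, Acta2, Apob, Atf4, Calr, Cars1, Ccn2, Cd3g, Cdkn1a, Cdo1, Chac1, Clec7a, Col3a1, Cyp2c12, Des, Ehhadh, Fasn, Gclc, Gdf15, Ghr, Gss, Hnf4a, Igf1, Ivd, Kmo, Lcn2, Lgals3, Nqo1, Pcyt1a, Pdia4, Ppara, Slc10a1, Spp1, Stc2, Tat, Trem2, Vldlr and Xbp1. The alternatives changed the filter, the scaling, the arrays and the model. The fit was tested on simulated data, and no scan date or time of killing was used.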

Additional observations from a re-analysis of the deposited data

Results flagged for a closer look

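For each gene named above, the array farthest from the rest of its group of 4 was compared with Dixon's 95% limit for its gap to the nearest array over the group's range. This singled out 29 of 468 groups of arrays (6.2%), and chance alone does so in about 1 of 20 where genes are not chosen by these values. Here some genes were chosen because normal replicate 4 lay far towards CDAA, so the count for that array follows in part from the choice. Normal replicate 4 accounted for 15 of them, always as the highest normal array. The log2 signals were Anxa5 at 8.13, Cd36 at 8.77, Chac1 at 7.30, Enc1 at 7.73, Fabp4 at 5.54, Fgf21 at 9.23, Lbp at 8.16, Lpl at 5.45, Myc at 7.27, Nupr1 at 9.22, Psat1 at 6.87, Reep5 at 9.37, Slc20a1 at 8.80, Slc3a2 at 8.82 and Trib3 at 8.65. CDAA replicate 4 was set apart upwards for Cyp3a9 at 5.74, Inhbc at 5.30, Shmt2 at 9.49, Slc3a2 at 9.93 and Stac3 at 8.65, and downwards for Cxcl1 at 6.27. CDAA replicate 2 was set apart downwards for Cdkn1a at 5.18 and Mki67 at 5.49, and upwards for Slc2a2 at 11.36 and Tnnc2 at 4.32. CDAA replicate 3 was low for Cpt1a at 10.26 and Crym at 5.26. Normal replicate 1 was low for Pdia4 at 10.48 and high for Pygl at 10.54, gaps that are small in size. The effect of diet differed between rats without and with hydrogen for 1 probe set that has no gene name here, by -0.68 log2 (limma interaction adjusted p = 0.0333). It was -0.24 ± 0.0647 without hydrogen and -0.92 ± 0.0647 with it.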

How the results depend on the processing

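Leaving out each of the 16 arrays in turn gave 2658 to 3244 genes higher and 1233 to 1616 lower, and 205 to 316 and 107 to 131 over 2-fold. The same runs gave 0 to 21 probe sets whose diet effect differed under hydrogen. With all 16 arrays kept, array weights gave 3 such probe sets and the replicate block 0. Centring arrays on the median of the tested probe sets, chosen after seeing the data, raised the lower genes from 1520 to 2340. Genes over 2-fold stayed within 1.5 times their count under every alternative run. For named genes 132 of the alternative values lost a call, 39 gained one and 0 changed direction, and the cause was not tested. Same-numbered deviations correlated at -0.00895, 0.156, -0.0104 and 0.153 between the diets, too few values to decide whether replicate numbers pair the samples. With the numbers as a replicate block in limma, 3170 genes were higher and 1546 lower. That block gave calls to Cdkn1a, Cebpb, Cth, Cyp2c12 and Tat (adjusted p = 0.0264 to 0.0476). It ended those of Cd3e and Hnf4a (adjusted p = 0.0505 to 0.0522). With 4 arrays per group, differences near the spread between arrays, and signals near the detection line, are the least certain.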
